A study of Homo sapiens with 18 samples.

Results

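The genes described here encode the core machinery of endoplasmic reticulum-associated degradation (ERAD). They are HERPUD1, DERL1, DERL2, DERL3, SEL1L, SYVN1, EDEM1, EDEM2, EDEM3 and OS9, chosen by name, and make up 10 of the 25435 rows of the gene count table. Every library came from HEK293doxERN2 cells, a human embryonic kidney line carrying a doxycycline-inducible transgene for FLAG-tagged ERN2 (IRE1β). The cells received no doxycycline (no ERN2), 10 ng/mL (low ERN2) or 100 ng/mL (high ERN2) for 24 hours, and then DMSO vehicle or 200 nM thapsigargin for 3 hours. Each of the 6 groups held 3 mRNA libraries, 18 in all. All groups were the same transgenic line, so an effect of doxycycline itself and of the ERN2 it induced cannot be told apart. The labels do not say whether the libraries of a group came from separate cultures, so p-values measure the spread between these libraries, which may be technical.

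ERAD removes proteins that fail to fold in the endoplasmic reticulum (ER). Lectins and mannosidases read and trim the glycans of a misfolded client, a membrane complex built around the ubiquitin ligase HRD1 (SYVN1) and its partner SEL1L moves the client to the cytosol with the help of derlins and HERPUD1 and attaches ubiquitin, and the ATPase p97 pulls it out for the proteasome. ERN2 and its broadly expressed relative ERN1 (IRE1α) are ER membrane kinases with an endonuclease that splices XBP1 mRNA, and the resulting transcription factor is known for inducing many ERAD genes. Thapsigargin blocks the calcium pump of the ER and so causes ER stress.

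The labelled conditions were checked on ERN2 and its pathway. In vehicle-treated cells, ERN2 averaged 7.92, 35.7 and 266 CPM (counts scaled to library totals with trimmed mean of M values (TMM) factors) at 0, 10 and 100 ng/mL doxycycline. Under thapsigargin it averaged 12.4, 66.05 and 201 CPM, with libraries at 32.3, 54.5 and 111 CPM at 10 ng/mL. Cells called no ERN2 or without ERN2 are thus cells without doxycycline, in which some ERN2 mRNA was counted. XBP1 mRNA averaged 78.1, 140 and 159 CPM in vehicle and 488, 423 and 209 CPM under thapsigargin at these doses, and ERN1 mRNA 7.77, 7.78 and 4.77 CPM in vehicle and 16.1, 12.2 and 5.54 CPM under thapsigargin. Total counts ran from 14876416 to 24652240 per library. One label speaks of colon crypt cells, but 7 of 10 colon epithelium markers stayed under 1 CPM in each group. CDX2, EPCAM and LGR5 were above it, and the list summed to 20.8 to 60.4 CPM. All 6 markers of HEK293 cells were detected and summed to 1850 to 2752 CPM, mostly VIM (group means 1418 to 2064 CPM). PAX2 of that list averaged 2.24 to 3.54 CPM, below CDX2, EPCAM and LGR5 in each group. Replicate 1 of the high ERN2 cells given thapsigargin stood apart, with 268 CPM of ERN2 against 169 and 167 CPM. Leaving it out raised the number of genes that differed between thapsigargin and vehicle at 100 ng/mL from 29 to 2568, so counts from the standard edgeR fit that involve this group are given with and without it. The low ERN2 vehicle libraries also spread widely, with ERN2 at 23.0, 27.2 and 56.8 CPM. Against no ERN2 in vehicle, leaving out low ERN2 replicate 1 raised the number of genes called from 28 to 2743, and leaving out no ERN2 replicate 1 lowered it to 0.

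Member levels are CPM scaled by TMM over the 18 libraries. A gene was called changed at an adjusted p under 0.01 by edgeR's quasi-likelihood test with Benjamini-Hochberg adjustment across the whole table of each comparison, and each of the 10 ERAD genes passed the filter on low counts in every comparison. Per kilobase of exon, OS9 was the most abundant member in cells without doxycycline or stress, at 43.6 ± 3.05 CPM per kilobase (SD, n = 3), followed by SYVN1 at 16.9 ± 1.33 and DERL1 at 11.4 ± 0.680. The libraries of these 3 genes did not overlap with those of the next gene in the order. DERL3 (9.42 ± 0.855 CPM per kilobase), SEL1L, EDEM2, EDEM1 and HERPUD1 (7.74 ± 0.360) followed, each with libraries that overlapped those of its neighbour. EDEM3 and DERL2 were lowest at 6.13 ± 1.19 and 5.63 ± 0.491 CPM per kilobase, and overlapped with each other. After thapsigargin without ERN2 the order changed, with HERPUD1 first at 130 ± 16.2 CPM per kilobase and DERL3, OS9 and SYVN1 next at 58.6, 51.9 and 49.1, whose libraries overlapped from neighbour to neighbour. With the longest transcript as the length, OS9 and SYVN1 remained first and second in cells without doxycycline or stress, and HERPUD1 moved from rank 8 to rank 4. DERL1 stayed at rank 3 (14.6 ± 0.873), but its libraries overlapped those of HERPUD1 (13.5 ± 0.630). DERL2 moved from rank 10 to rank 8, and EDEM2 (8.38 ± 0.442) and EDEM3 (6.93 ± 1.35) were lowest.

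**Figure D1:**
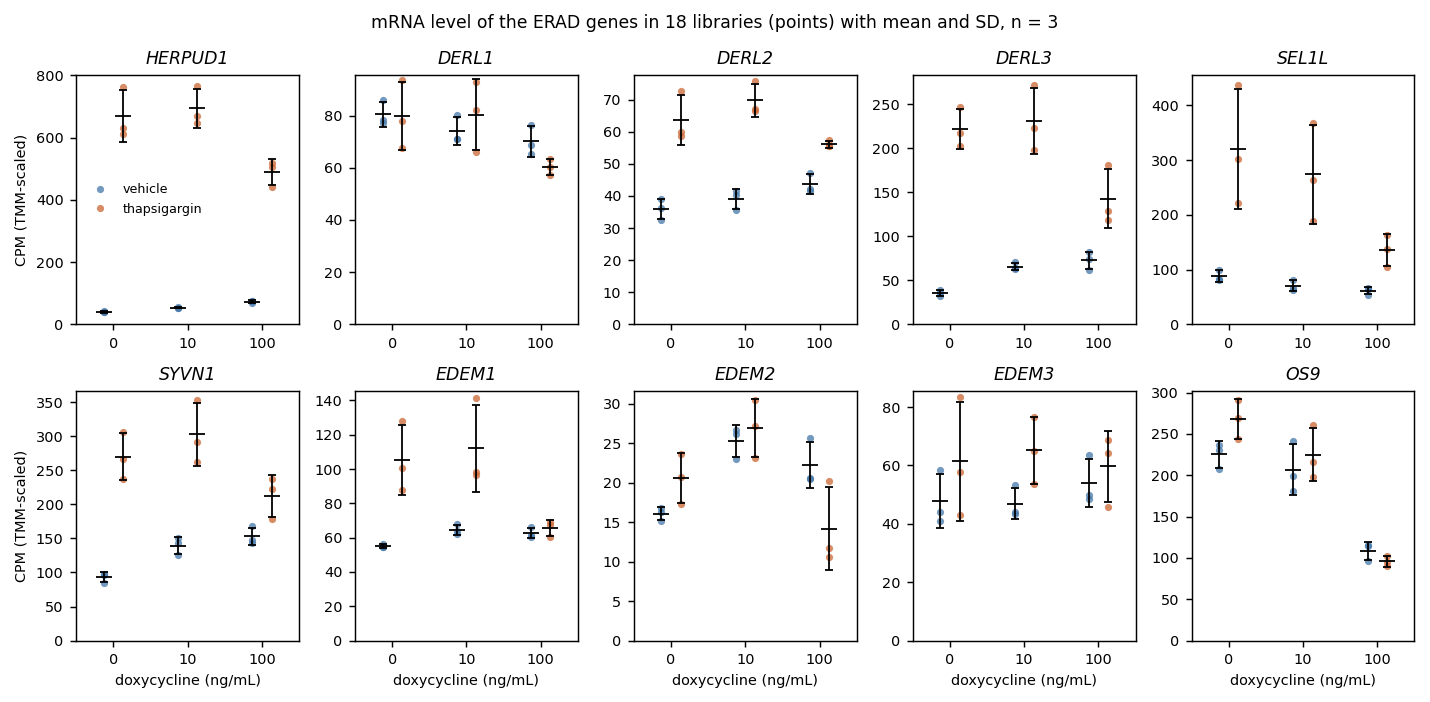
Level of each ERAD gene in CPM (vertical axis, linear from 0, scaled per panel) against the doxycycline dose in ng/mL, in vehicle (blue) and thapsigargin (orange). Points are libraries and black bars the mean and SD of 3. HERPUD1 spans 38.6 to 766 CPM, whereas OS9 lies between 181 and 291 CPM at 0 and 10 ng/mL and between 89.7 and 115 CPM at 100 ng/mL.

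High ERN2 without added stress was compared with no ERN2 to see how the ERAD genes differed after doxycycline without added stress. HERPUD1, DERL3 and SYVN1 rose and OS9 fell, and the other 6 members did not pass the test. The 3 higher genes compare with 0.838% of 14444 genes called higher in this comparison, and the 1 lower gene with 7.49% called lower. The median log2 fold change was 0.23 over the 10 members and -0.01 over all genes. Leaving out any 1 library left 4 members called, where 915 to 1397 genes were called over the whole table, against 1203 with all libraries. With low ERN2, DERL3 alone was called, where 0.138% of 14497 genes were called higher (8.05% of 14616 without low ERN2 replicate 1), and the medians were 0.18 for the members and 0.00 for all genes.

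HERPUD1 encodes an ER membrane protein with a ubiquitin-like domain that assembles with HRD1, and is itself a well-known ER stress target. It lies at chr16:56932048-56944863 on the plus strand (GRCh38). Without doxycycline or stress its level was 42.0, 38.6 and 39.0 CPM in the 3 libraries. It was 54.8, 51.5 and 52.4 CPM at 10 ng/mL and 75.5, 75.3 and 67.8 CPM at 100 ng/mL. The 3 groups did not overlap and stood in the order of the dose. HERPUD1 rose by a log2 fold change of 0.87 ± 0.111 (SE) at 100 ng/mL (adjusted p = 0.000137, edgeR). With low ERN2 the difference was 0.41 ± 0.112 and did not pass the test (adjusted p = 0.0787).

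The HERPUD1 promoter is shown because it was the only member promoter with any of the stress elements searched. The RefSeq promoter table (GRCh38.p14, 250 bases before to 50 after each gene's start) held 8 of the 10 members, all but DERL1 and DERL3. On both strands, 4 motifs were searched, with any base in the gap inside a motif. The ER stress element ERSE (CCAAT, 9 bases, CCACG) was found in 0 of 8 member promoters and in 0.0769% of 35093 promoters, the UPRE core TGACGTG in 0 of 8 and 1.97%, and the amino acid response element CARE (TGATG, 1 base, AAT) in 0 of 8 and 0.992%. ERSE-II (ATTGG, 1 base, CCACG) was found in 1 of 8 and in 0.0541% of promoters. The stretch below covers chr16:56932010-56932050 on the plus strand, with ERSE-II in capitals at positions -117 to -107 from the RefSeq start at 56932142, which lies inside the gene as annotated by GENCODE.
HERPUD1: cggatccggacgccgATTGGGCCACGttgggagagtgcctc
A match describes letters in this window, and binding was not measured.

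The derlins are multispanning membrane proteins of the retrotranslocation complex. DERL3, the member known for expression in secretory tissues, was at 38.9, 36.0 and 32.4 CPM without doxycycline, 62.5, 70.6 and 64.3 CPM at 10 ng/mL and 74.2, 81.9 and 61.9 CPM at 100 ng/mL in vehicle. All libraries of both doses were above those without doxycycline, and the doses overlapped with each other. DERL3 rose by 0.88 ± 0.121 on the log2 scale at 10 ng/mL (adjusted p = 0.00582) and by 1.02 ± 0.134 at 100 ng/mL (adjusted p = 0.000158). The call at 10 ng/mL was lost when any of 5 of the 6 libraries was left out, with adjusted p up to 0.0483. It was kept without replicate 1 of low ERN2 vehicle, when SYVN1 and EDEM2 were called as well and 8.05% of genes were called higher. The fit with all 6 groups gave an adjusted p of 0.0236. DERL3 lies at chr22:23834503-23839128 on the minus strand, and 2923 bases of its exons (77.0%) overlap exons of SMARCB1 on the other strand. The libraries were stranded, but whether counting used the strand is not given in the sources used here, and reads of the 2 genes are told apart only if strand was used. SMARCB1 was at 196 ± 12.6 CPM without doxycycline and 215 ± 34.8 CPM at 100 ng/mL in vehicle (log2 fold change 0.13, adjusted p = 0.507), and its part in the DERL3 values was not tested.

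DERL2 and DERL1 did not pass the test in vehicle. DERL2 (chr17:5471251-5486811, minus strand) was at 32.7, 38.9 and 36.3 CPM without doxycycline and 42.3, 47.2 and 41.4 CPM at 100 ng/mL. These libraries did not overlap, but the difference of 0.28 ± 0.122 on the log2 scale did not pass (adjusted p = 0.148). DERL1, on chromosome 8, was at 77.3, 86.1 and 78.3 CPM without doxycycline and 76.6, 68.7 and 65.1 CPM at 100 ng/mL, with a log2 fold change of -0.20 ± 0.111 (adjusted p = 0.258). It shares 396 exonic bases (5.59%) with TBC1D31 on the other strand, which differed by -0.16 ± 0.177 at 100 ng/mL (adjusted p = 0.574).

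SYVN1 encodes the ligase HRD1 and lies at chr11:65121780-65134533 on the minus strand. It was at 97.1, 84.3 and 96.8 CPM without doxycycline, 125, 143 and 150 CPM at 10 ng/mL and 148, 168 and 143 CPM at 100 ng/mL. Both doses lay above the cells without doxycycline in every library. SYVN1 rose by 0.72 ± 0.111 on the log2 scale at 100 ng/mL (adjusted p = 0.000575), and at 10 ng/mL it differed by 0.59 ± 0.113 without passing the test (adjusted p = 0.0309). SYVN1 shares 398 exonic bases (7.24%) with FAU on the same strand, and 5.06% of its 75-base windows occur in FAU transcripts, so a small part of its reads may be counted with either gene or with neither. FAU differed by 0.54 ± 0.197 at 100 ng/mL (adjusted p = 0.0932).

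SEL1L is the adaptor that holds HRD1 and its lectins together. It (chr14:81471549-81533861, minus strand) was at 80.4, 100 and 83.3 CPM without doxycycline, 81.6, 66.9 and 62.9 CPM at 10 ng/mL and 67.0, 53.9 and 64.4 CPM at 100 ng/mL. The libraries at 100 ng/mL all lay below those without doxycycline. The log2 fold change of -0.51 ± 0.127 missed the threshold with edgeR (adjusted p = 0.0172), whereas DESeq2 gave an adjusted p of 0.00381.

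Among the glycan-reading members, OS9 fell. OS9 is an ER lectin that hands clients with trimmed glycans to SEL1L, and lies at chr12:57693955-57721557 on the plus strand. It shares 699 exonic bases (13.5%) with AC025165.2 on the other strand. That gene has no row among the counts, and its part in the OS9 values was not tested. In vehicle OS9 was at 237, 207 and 231 CPM without doxycycline, 199, 241 and 181 CPM at 10 ng/mL and 96.4, 114 and 115 CPM at 100 ng/mL. The first 2 groups overlapped, and all 3 libraries at 100 ng/mL were below them. OS9 fell by 1.05 ± 0.111 on the log2 scale against no ERN2 (adjusted p = 3.13e-05), and by 0.92 ± 0.134 against low ERN2 (adjusted p = 0.004). It was the only member called between the 2 doses in vehicle, where 2.43% of 14549 genes were called lower. That call against low ERN2 was lost without replicate 2 of low ERN2 (adjusted p = 0.0263), without replicate 1 of high ERN2 (0.0164) and without replicate 3 of high ERN2 (0.0308).

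The EDEM genes encode mannosidases and related lectins that mark clients for disposal. EDEM2 (chr20:35115357-35147364, minus strand), the enzyme that starts trimming, was at 16.3, 15.1 and 16.8 CPM without doxycycline, 23.0, 26.1 and 26.7 CPM at 10 ng/mL and 20.6, 25.7 and 20.5 CPM at 100 ng/mL. Both doses lay above the cells without doxycycline, but neither difference passed the test (log2 fold changes 0.65 ± 0.133, adjusted p = 0.0430, and 0.47 ± 0.140, adjusted p = 0.0408). EDEM1 (chr3:5187646-5219957, plus strand) and EDEM3 (chr1:184690231-184754913, minus strand) differed by 0.19 ± 0.106 and 0.17 ± 0.156 at 100 ng/mL (adjusted p = 0.262 and 0.481). EDEM1 shares 653 exonic bases (9.66%) with AC026202.3 on the other strand, which has no row among the counts. Over the 18 libraries EDEM3 ranged from 41.0 to 83.3 CPM and EDEM1 from 54.5 to 141 CPM.

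**Figure D2:**
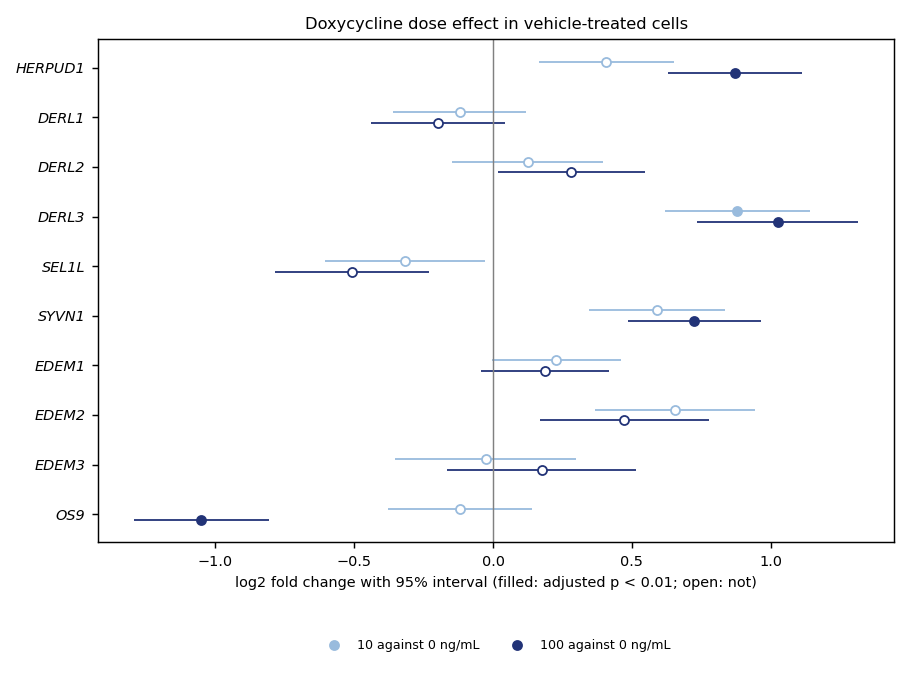
Log2 fold change (horizontal axis) of each ERAD gene in vehicle-treated cells at 10 ng/mL (light blue) and 100 ng/mL doxycycline (dark blue) against none, with 95% intervals from edgeR. Both doses share the libraries without doxycycline. Filled points passed an adjusted p of 0.01: HERPUD1, DERL3 and SYVN1 to the right and OS9 to the left at 100 ng/mL, and DERL3 at 10 ng/mL.

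Thapsigargin was compared with vehicle at each dose of doxycycline, to see how the ERAD genes respond to ER stress with and without ERN2. Without ERN2, 6 members rose (HERPUD1, DERL2, DERL3, SEL1L, SYVN1 and EDEM1) and 0 fell, where 6.45% of 14397 genes were called higher. With low ERN2, 5 members rose (all of these but EDEM1), where 1.16% of 14607 genes were called higher. With high ERN2, HERPUD1 alone rose, where 0.180% of 14427 genes were called higher. Without the outlying replicate 1 of the last group, 3 members rose (HERPUD1, DERL3 and SEL1L) and EDEM2 fell, where 9.78% of genes were called higher and 7.84% lower. The median log2 fold change of the members was 0.89, 0.82 and 0.30 at the 3 doses, against medians of all genes between -0.01 and 0.00. DESeq2 called 6, 6 and 3 members higher, where it called 8.74%, 4.57% and 1.78% of genes higher. At 10 ng/mL the number called ranged from 2 members without replicate 2 of low ERN2 vehicle to 6 without replicate 3 of low ERN2 thapsigargin. Over all genes, 28 were called in the first of these fits and 494 in the second, against 212 with all libraries.

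HERPUD1 had the smallest p of all genes tested at each dose. Under thapsigargin it reached 611, 764 and 631 CPM without doxycycline, 647, 766 and 669 CPM at 10 ng/mL and 519, 442 and 505 CPM at 100 ng/mL. The libraries at 100 ng/mL all lay below those of the other 2 groups, which overlapped. That difference did not pass the test against no ERN2 (log2 fold change -0.39 ± 0.136, adjusted p = 0.0586) or low ERN2 (-0.45 ± 0.138, adjusted p = 0.0458). The fit with all 6 groups called both (adjusted p = 0.00267 and 0.00133). Against vehicle HERPUD1 rose by 4.08 ± 0.125 on the log2 scale, or 16.9-fold, without ERN2 (adjusted p = 6.09e-10). The rise was 3.72 ± 0.121 at 10 ng/mL (adjusted p = 1.77e-07) and 2.79 ± 0.128, or 6.92-fold, at 100 ng/mL (adjusted p = 6.04e-06).

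DERL3 was at 218, 247 and 202 CPM under thapsigargin without doxycycline, 224, 272 and 198 CPM at 10 ng/mL and 181, 129 and 119 CPM at 100 ng/mL. In the last group replicate 1 was the highest and the other 2 libraries were close together. DERL3 rose by 2.65 ± 0.120 on the log2 scale without ERN2 (adjusted p = 1.86e-08) and by 1.82 ± 0.137 at 10 ng/mL (adjusted p = 9.40e-05). At 100 ng/mL the difference of 1.02 ± 0.178 missed the threshold (adjusted p = 0.0205), and without replicate 1 it passed (0.81, adjusted p = 0.000993). SMARCB1, which overlaps DERL3, differed by 0.22, 0.03 and -0.04 on the log2 scale at the 3 doses, with adjusted p of 0.174 or higher.

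DERL2 was at 58.6, 72.6 and 59.8 CPM under thapsigargin without doxycycline, 66.4, 75.7 and 67.2 CPM at 10 ng/mL and 55.5, 55.5 and 57.3 CPM at 100 ng/mL. Each group lay above its vehicle libraries. It rose by 0.84 ± 0.128 on the log2 scale without ERN2 (adjusted p = 0.000621) and by 0.84 ± 0.123 at 10 ng/mL (adjusted p = 0.00451), and the difference of 0.41 ± 0.134 at 100 ng/mL did not pass (adjusted p = 0.104). The call at 10 ng/mL was lost without replicate 2 of low ERN2 vehicle (adjusted p = 0.0445), replicate 3 of low ERN2 vehicle (0.0142) or replicate 2 of low ERN2 thapsigargin (0.0482). DERL2 shares 301 exonic bases (4.71%) with MIS12 on the other strand. MIS12 also rose with thapsigargin, from 54.3 ± 8.35 to 108 ± 14.3 CPM without ERN2 (adjusted p = 0.000301), and its part in the DERL2 values was not tested.

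SEL1L was at 301, 437 and 222 CPM under thapsigargin without doxycycline, 265, 368 and 189 CPM at 10 ng/mL and 105, 138 and 164 CPM at 100 ng/mL. Replicate 2 was the highest and replicate 3 the lowest in the first 2 groups, and all libraries at 100 ng/mL were lower than those of both. SEL1L rose by 1.88 ± 0.198 on the log2 scale without ERN2 (adjusted p = 4.09e-05) and by 1.96 ± 0.216 at 10 ng/mL (adjusted p = 0.000949; 0.0201 without replicate 2 of low ERN2 vehicle). With high ERN2 the difference of 1.18 ± 0.184 missed the threshold (adjusted p = 0.0131) and passed without replicate 1 (1.32, adjusted p = 9.11e-05).

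SYVN1 was at 238, 306 and 266 CPM under thapsigargin without doxycycline, 263, 354 and 292 CPM at 10 ng/mL and 238, 222 and 178 CPM at 100 ng/mL. It rose by 1.55 ± 0.118 on the log2 scale without ERN2 (adjusted p = 1.97e-06) and by 1.12 ± 0.137 at 10 ng/mL (adjusted p = 0.00170). The call at 10 ng/mL was lost without replicate 2 of low ERN2 vehicle (adjusted p = 0.0241) or replicate 2 of low ERN2 thapsigargin (0.0152). With high ERN2, where its vehicle level was already raised, the difference was 0.52 ± 0.141 (adjusted p = 0.0677). MRPL49, which overlaps SYVN1 by 356 exonic bases on the other strand, differed by 0.38 without ERN2 (adjusted p = 0.0167).

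EDEM1 was at 54.5, 56.4 and 54.7 CPM in vehicle and 101, 128 and 88.0 CPM under thapsigargin without doxycycline. At 100 ng/mL it was at 66.1, 61.8 and 60.6 CPM in vehicle and 67.4, 60.4 and 69.0 CPM under thapsigargin, so that the groups were apart without ERN2 and overlapped with high ERN2. EDEM1 rose by 0.95 ± 0.136 on the log2 scale without ERN2 (adjusted p = 0.000409), against differences of 0.80 ± 0.154 at 10 ng/mL (adjusted p = 0.0161) and 0.11 ± 0.133 at 100 ng/mL (adjusted p = 0.619). DESeq2 did call it at 10 ng/mL (adjusted p = 0.000187).

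EDEM2 was at 17.3, 23.7 and 20.8 CPM under thapsigargin without doxycycline and 20.2, 10.6 and 11.7 CPM at 100 ng/mL. Replicate 1 of the latter group lay near its vehicle libraries (20.6, 25.7 and 20.5 CPM) and the other 2 well below them. The log2 fold change at 100 ng/mL was -0.60 ± 0.237 (adjusted p = 0.146) and -0.96 ± 0.181 without replicate 1 (adjusted p = 0.00123). OS9, EDEM3 and DERL1 were called at none of the 3 doses. OS9 was at 244, 291 and 269 CPM under thapsigargin without doxycycline, a log2 fold change of 0.26 ± 0.106 (adjusted p = 0.0887), while DERL1 differed by 0.00 ± 0.128 (adjusted p = 0.990) and EDEM3 by 0.37 ± 0.206 (adjusted p = 0.212).

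**Figure D3:**
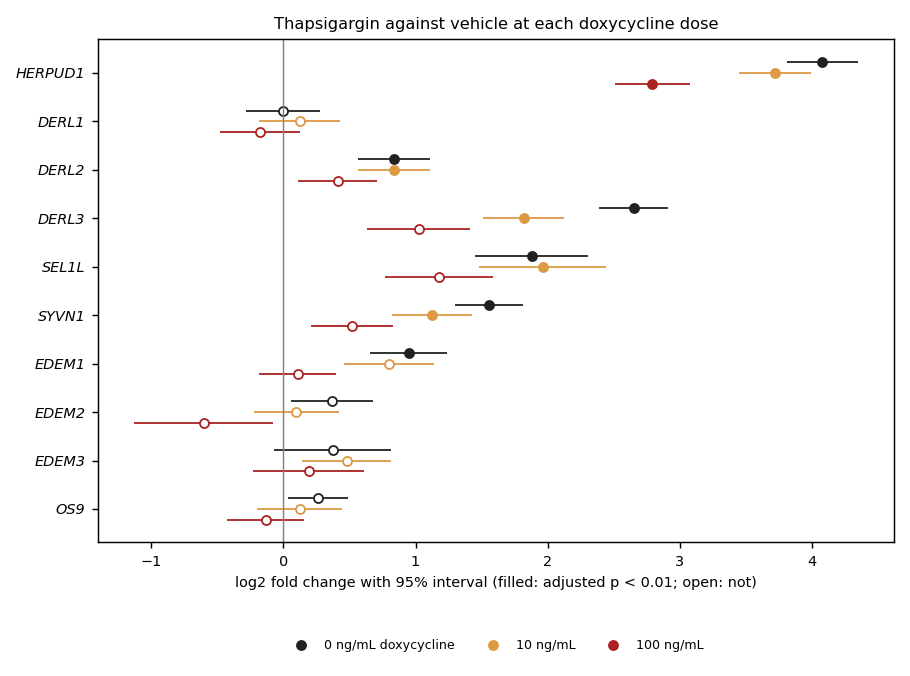
Log2 fold change (horizontal axis) of each ERAD gene between thapsigargin and vehicle at 0 (black), 10 (orange) and 100 ng/mL doxycycline (red), with 95% intervals from edgeR. The points of HERPUD1 stand at 4.08, 3.72 and 2.79, and filled points, which passed an adjusted p of 0.01, number 6, 5 and 1 at the 3 doses.

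Whether the thapsigargin response itself differed with ERN2 was tested as an interaction over 12 libraries. At 100 ng/mL against none, HERPUD1 alone was called, with a response smaller by 1.21 ± 0.155 on the log2 scale (interaction -1.21, adjusted p = 0.00741), where 0.0339% of 14768 genes were called lower. All 10 members had an estimate below 0, with a median of -0.69, against 0.04 for all genes. Scaling by library totals alone moved the median of all genes to -0.14, and all 10 members lay below that median as well. With single libraries left out, EDEM3 was above 0 in 3 of 12 cases (without replicate 1 of high ERN2 vehicle, replicate 1 of high ERN2 thapsigargin or replicate 2 of no ERN2 thapsigargin), and in the last of these DERL1 was too. DERL3 had the lowest estimate, -1.55 ± 0.219, and missed the threshold narrowly (adjusted p = 0.0100026). It was called by DESeq2, with RLE size factors, with library totals, without the filter, in the fit with all 6 groups and with the replicate number as a block, which ended the call of HERPUD1 (adjusted p = 0.0178). SYVN1 stood at -0.95 ± 0.182 (adjusted p = 0.0278), EDEM2 at -0.89 ± 0.286 (0.0987), EDEM1 at -0.76 ± 0.192 (0.0657) and SEL1L at -0.62 ± 0.318 (0.242). The other 4 members lay between -0.34 and -0.09.

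The interaction of HERPUD1 kept its size but not its call when single libraries were left out. Its estimate ranged from -1.30 to -1.16, and its adjusted p reached 0.0342 without replicate 2 of high ERN2 thapsigargin and was under the threshold in 4 of 12 cases. Without the outlying replicate 1 of high ERN2 thapsigargin, 5 members were called lower (HERPUD1, DERL3, SYVN1, EDEM1 and EDEM2), where 2.82% of genes were called lower. In 8 of 12 cases 0 members were called, namely without any 1 of the vehicle libraries of either group or without replicate 2 or 3 of high ERN2 thapsigargin. DESeq2 called 4 members lower, where it called 1.37% of genes lower. At 10 ng/mL, edgeR called 0 members and 0% of 14857 genes in either direction. There, 3 members had an unadjusted p under 0.05, where 664 of 14857 genes did, and DESeq2 called 0 members and 3 genes. The lowest estimate at 10 ng/mL was again that of DERL3, -0.82 ± 0.175 (adjusted p = 0.779).

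Within thapsigargin-treated cells, OS9 and SEL1L were lower at 100 ng/mL than without doxycycline, 2 members where 9.00% of 14358 genes were called lower. The median log2 fold change of the members was -0.43, against 0.04 for all genes. OS9 was at 103, 89.7 and 94.9 CPM at 100 ng/mL, below all libraries of the other 2 thapsigargin groups, and fell by 1.42 ± 0.136 on the log2 scale (adjusted p = 1.88e-05). SEL1L fell by 1.18 ± 0.240 (adjusted p = 0.00397). The call of SEL1L was lost without replicate 1 (adjusted p = 0.0116) or replicate 2 (0.0174) of no ERN2 thapsigargin or replicate 2 of high ERN2 thapsigargin (0.0231). Without replicate 1 of high ERN2 thapsigargin, 5 members were called lower (OS9, SEL1L, DERL3, EDEM1 and EDEM2), where 13.7% of genes were.

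Against low ERN2 under thapsigargin, OS9 was the only member called at 100 ng/mL (fell by 1.17 ± 0.152, adjusted p = 0.000624), where 5.32% of 14493 genes were called lower. All 10 members had estimates below 0, with a median of -0.55, against 0.00 for all genes. EDEM3 was above 0 without replicate 1 of high ERN2 thapsigargin or replicate 2 of low ERN2 thapsigargin. The call of OS9 was lost without replicate 2 of high ERN2 thapsigargin (adjusted p = 0.0137). Without replicate 1 of that group 3 members were called lower (OS9, DERL3 and EDEM2), where 8.90% of genes were, and DESeq2 called 4 members lower and 8.44% of genes.

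**Figure D4:**
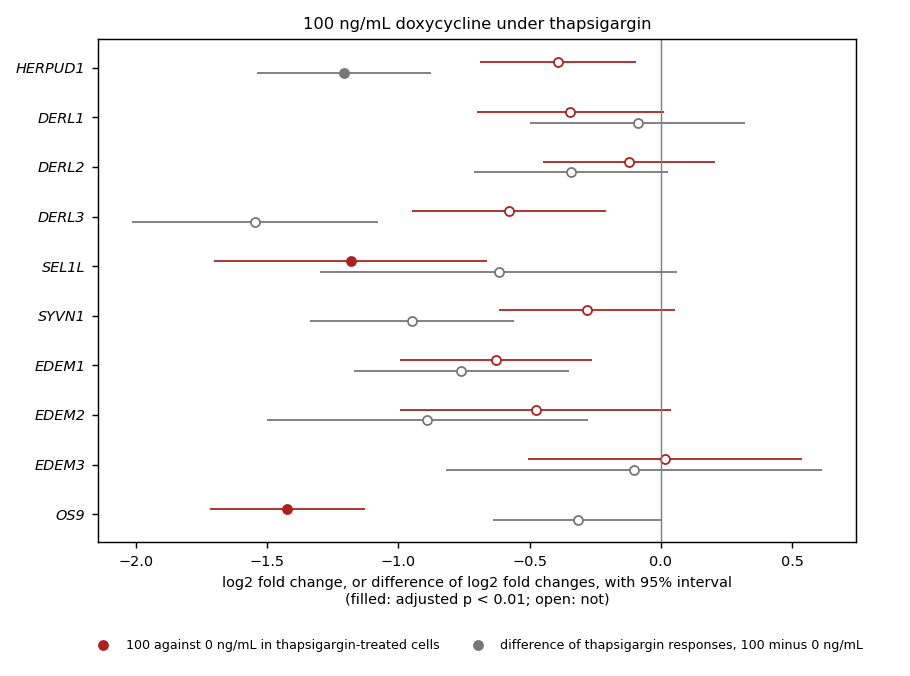
Each ERAD gene at 100 ng/mL doxycycline against none: the log2 fold change within thapsigargin-treated cells (red) and the difference between the thapsigargin responses (grey), with 95% intervals from edgeR. Both measures share libraries. The filled points, which passed an adjusted p of 0.01, are OS9 (-1.42) and SEL1L (-1.18) in red and HERPUD1 (-1.21) in grey.

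Low ERN2 was also compared with no ERN2 under thapsigargin, where edgeR called 0 members and 0% of 14509 genes in either direction. In this comparison 1 member had an unadjusted p under 0.05, where 612 of 14509 genes did, and DESeq2 called 0 members and 39 genes. ERN2 itself did not pass the edgeR test here (log2 fold change 2.42 ± 0.384, adjusted p = 0.292), although its libraries in the 2 groups did not overlap. The absence of calls thus does not show that the members were unchanged. In these 2 groups, libraries with the same replicate number deviated together, and replicate 2 was the highest library for all 10 members in both. With the replicate number as a block, 564 genes were called, 1.36% higher and 2.53% lower. SEL1L (-0.22, adjusted p = 0.00781) and OS9 (-0.26, adjusted p = 0.00649) were then lower at 10 ng/mL and EDEM2 (0.39, adjusted p = 0.00666) higher. Under thapsigargin at 10 ng/mL, OS9 was at 216, 261 and 198 CPM and EDEM2 at 23.2, 30.4 and 27.3 CPM. SEL1L and OS9 were below, and EDEM2 above, the library of the same number without doxycycline in 3 of 3 pairs. The estimate of SEL1L without the block was 0.07 when replicate 2 of no ERN2 thapsigargin was left out, above 0.

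Genes with the most similar pattern over the 18 libraries were listed for each member as a description, since libraries of a group share a treatment. HERPUD1 was most like CHAC1 (Pearson r of log2 CPM 0.996), DDIT3 (0.995) and SIAH2 (0.987), of which DDIT3 encodes the stress factor CHOP and CHAC1 a glutathione-degrading enzyme. DERL2 was most like MANF, HSPA5 (the chaperone BiP) and TES, with r of 0.977, 0.973 and 0.972. EDEM1 was most like PDIA4, DNAJB11 and HYOU1, all ER folding factors, with r of 0.948, 0.945 and 0.938. OS9 was most like NUCB1, YIPF3 and RETSAT (r of 0.987, 0.987 and 0.982), none of them an ERAD gene. DERL3 and SYVN1 had AARS, an aminoacyl-tRNA synthetase gene, among their 3 most similar genes (r of 0.981 and 0.978), and of all member pairs these 2 were the most alike (0.981). EDEM2 and EDEM3 were the least alike pair, at -0.09. After group means were removed, the 30 listed correlations ran from 0.154 (HERPUD1 with SIAH2) to 0.961 (DERL1 with ENTPD7). Among member pairs, DERL3 with SYVN1 then stood at 0.665, and SEL1L with EDEM3 was the most alike pair (0.931).

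The wider ERAD machinery was followed in 3 lists, of other ligases and their cofactors, of recognition and glycan-trimming factors, and of extraction and delivery factors, with 63 genes tested of 64 with a row. At 100 ng/mL against none in vehicle, 4 of the 63 rose and 8 fell, with a median of -0.05, where 0.838% of all genes were called higher and 7.49% lower. DNAJB9 (ERdj4, a cochaperone of BiP) rose by 2.07 ± 0.160 on the log2 scale, SELK by 0.88 ± 0.137, VIMP by 0.69 ± 0.105 and TXNDC11 by 0.58 ± 0.112. SELK and VIMP are ER selenoproteins that recruit p97. Among those that fell were the mannosidase gene MAN1C1 (fell by 1.85 ± 0.201), the glucosyltransferase UGGT2 (1.34 ± 0.189), the ligases TMEM129 (0.94 ± 0.153) and RNF145 (0.56 ± 0.106), and FAM8A1, a partner of HRD1 (0.94 ± 0.160). With low ERN2 DNAJB9 alone was called, higher by 1.24 ± 0.158, where 0.138% of all genes were called higher.

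With thapsigargin and no ERN2, 6 of the 63 rose and 2 fell, where 6.45% of all genes were called higher and 4.74% lower. SDF2L1 (a partner of ER J proteins) rose by 2.80 ± 0.135 on the log2 scale, DNAJB9 by 2.72 ± 0.185, SELK by 1.20 ± 0.167, TXNDC11 by 1.07 ± 0.111, VIMP by 0.98 ± 0.155 and the p97 cofactor NPLOC4 by 0.73 ± 0.121. JKAMP fell by 1.16 ± 0.183, and so did YOD1, named after its value was seen, by 0.61 ± 0.129. At 10 ng/mL, SDF2L1, DNAJB9 and TXNDC11 rose and 0 fell, where 1.16% of all genes were called higher. At 100 ng/mL edgeR called 0 of the 63, where 0.180% of all genes were called higher. There, 18 of the 63 had an unadjusted p under 0.05, where 3892 of 14427 genes did. DESeq2 called 1 higher and 4 lower, where it called 1.78% of all genes higher and 3.29% lower. Without replicate 1 of high ERN2 thapsigargin edgeR called 4 higher and 8 lower, where 9.78% and 7.84% of all genes were. Under thapsigargin, 11 of the 63 were lower at 100 ng/mL than without doxycycline and 0 higher, with a median of -0.18, where 9.00% of all genes were called lower and 1.53% higher. Without replicate 1 of high ERN2 thapsigargin 18 were lower and 6 higher, where 13.7% and 13.5% of all genes were. TMEM129 (fell by 1.71 ± 0.168) and TMUB1 (0.68 ± 0.153) were among them, with MAN1C1 (2.04 ± 0.249) and SDF2L1 (1.01 ± 0.189). The interaction at 100 ng/mL called 0 of the 63 with edgeR, with a median of -0.08. Of the 63, 19 had an unadjusted p under 0.05, where 3651 of 14768 genes did. DESeq2 called 5 of the 63 lower, where it called 1.37% of all genes lower. Without replicate 1 of high ERN2 thapsigargin edgeR called 8 lower and 2 higher, where 2.82% and 5.79% of all genes were.

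**Figure D5:**
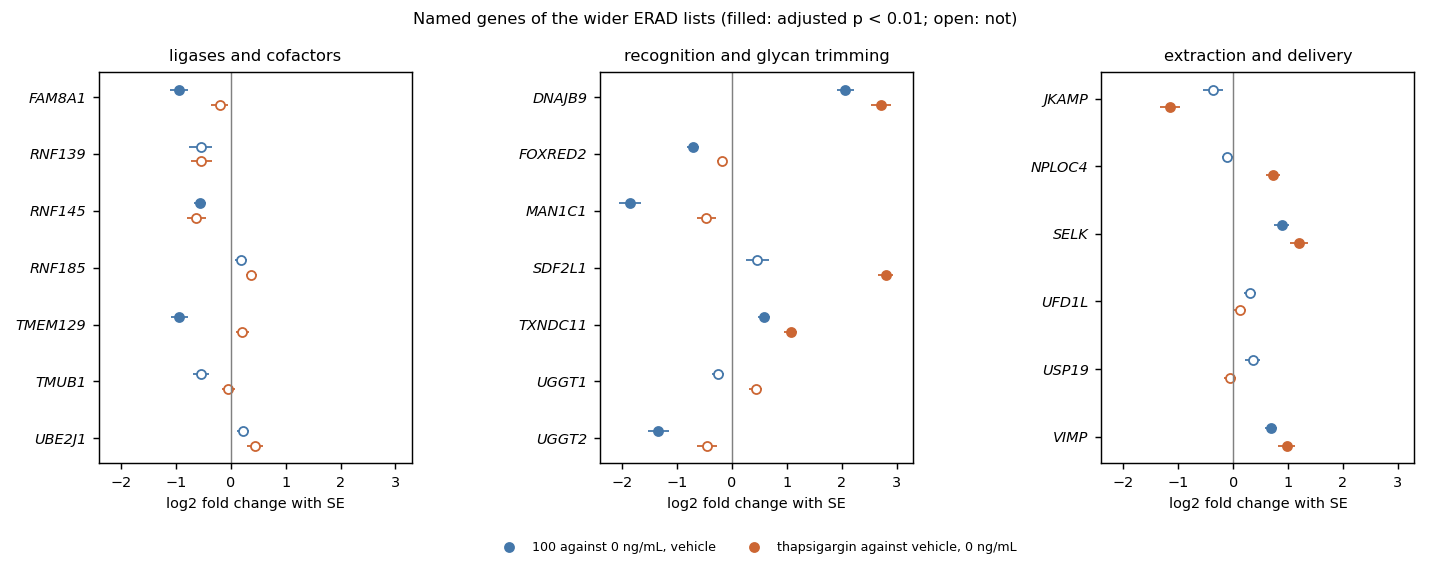
Log2 fold change with SE (horizontal axis) of the named genes of the 3 wider ERAD lists, at 100 ng/mL doxycycline against none in vehicle (blue) and for thapsigargin against vehicle without doxycycline (orange). Both comparisons share the vehicle libraries without doxycycline. DNAJB9, TXNDC11, SELK and VIMP passed an adjusted p of 0.01 (filled) to the right in both, while FAM8A1, RNF145 and TMEM129 of the ligase list passed to the left in blue.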

How the data were processed

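RNA was sequenced from HEK293doxERN2 cells as stranded mRNA libraries with 75-base single reads. The authors aligned reads with STAR (hg38, per the labels) within the VIPER pipeline and deposited raw counts per gene symbol in 1 table. The aligner version, annotation and strand setting are not given in the sources used here. Columns were assigned to libraries by the column number in each label, and 0 columns of values were left unused. Of the 25435 rows, 28 bear a date in place of a symbol.

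Genes were filtered by filterByExpr at a minimum count of 10, scaled by TMM and tested in the groups compared with edgeR 4.0.16 (quasi-likelihood test) in R 4.3.3, with Benjamini-Hochberg adjustment over all genes and a threshold of 0.01. Interactions used 12 libraries. The SE was taken from the size of the fold change and its F statistic, and intervals are 95%. The test was also run on simulated counts with independent libraries. That run cannot speak to an outlying library or to deviations shared by replicate number. Libraries of a group differed by more than counting noise, so none was treated as a repeat deposit of another, which does not show that they came from separate cultures.

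The members and lists were chosen with earlier results of these data known. One gene of the ligase list is not reported here. Named genes were the 10 members, ERN2, ERN1, XBP1, the 3 genes most like each member by Pearson r, and from each wider list up to 4 genes with the smallest p in each of 2 comparisons. Positions and lengths are from GENCODE release 29, and promoters from RefSeq. The replicate numbers of the labels were checked as pairs. Correlations of deviations from group means were over 0.1 for every number only between low and no ERN2 under thapsigargin (0.401, 0.343 and 0.467). Alternatives were DESeq2 1.42.0, RLE factors, library totals, no filter, all 6 groups in 1 fit, the replicate block, an adjusted p of 0.05 and each library left out.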

Additional observations from a re-analysis of the deposited data

Results flagged for a closer look

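The response of HERPUD1 to thapsigargin differed between high and no ERN2 by an interaction test over 12 libraries (-1.21 on the log2 scale, SE 0.155, adjusted p = 0.00741 with edgeR). The call was lost in 8 of 12 fits that left out 1 library (adjusted p up to 0.0342) and with the replicate block (0.0178). HERPUD1 was higher under thapsigargin in 3 of 3 libraries at both doses, by 4.08 without ERN2 and 2.79 with high ERN2. Its vehicle level was higher with high ERN2 (72.9 against 39.9 CPM), a difference that was called. Its mean thapsigargin level was lower (489 against 668 CPM), but this difference did not pass the test (log2 fold change -0.39 ± 0.136, adjusted p = 0.0586, edgeR). ERN2 itself varied among the thapsigargin libraries at 100 ng/mL (268, 169 and 167 CPM), and its part in the difference was not tested.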

How the results depend on the processing

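Of 49 member fold changes called in any setting, 1 had the other sign in another, SEL1L at 10 against 0 ng/mL under thapsigargin (-0.22 with the replicate block and 0.07 without replicate 2 of no ERN2 thapsigargin). Of 660 values of member fold changes from another tool, scaling, filter or fit, 603 kept their side of the threshold, 3 lost and 54 gained a call, and an adjusted p of 0.05 added 17 calls. With DESeq2, the members called numbered 3 at 10 ng/mL against 0 in vehicle, 2 between both doses in vehicle, 3 for thapsigargin at 100 ng/mL, 4 at 100 against 10 ng/mL under thapsigargin and 4 for the interaction at 100 ng/mL. Over all genes DESeq2 called 381, 801, 732, 1647 and 341 there, against 28, 356, 29, 805 and 6 with the standard fit. Without the filter the members were 3, 1, 3, 4 and 3, and 4 at 100 ng/mL against 0 under thapsigargin. Genes called were then 623, 638, 299, 1646, 86 and 2236, and the standard fit called 1512 in the last. In the fit with all 6 groups the members were 0, 2, 3, 7, 3 and 5. Genes called were then 3, 628, 941, 2054, 35 and 2641. At an adjusted p of 0.05 the members were 3, 2, 3, 6, 3 and 4. Genes called were then 110, 836, 494, 2061, 149 and 3018. Library totals gave 3 members at 100 against 10 ng/mL under thapsigargin and 2 for the interaction, and RLE factors gave 2 for the interaction. Genes called were 895 and 20 with library totals and 14 with RLE factors. Where high ERN2 thapsigargin was involved, these counts include its outlying replicate 1. With single libraries left out, counts ran from 0 to 3 (10 against 0 ng/mL, vehicle), 4 to 4 (100 against 0, vehicle), 0 to 1 (100 against 10, vehicle), 6 to 6, 2 to 6 and 1 to 4 (thapsigargin at 0, 10 and 100 ng/mL), 0 to 0, 1 to 5 and 0 to 3 (the dose pairs under thapsigargin) and 0 to 0 and 0 to 5 (interactions at 10 and 100 ng/mL). In the same order, genes called ran from 0 to 2743, 915 to 1397 and 0 to 496 in vehicle. For thapsigargin they ran from 731 to 1901, 28 to 494 and 4 to 2568. The dose pairs under thapsigargin gave 0 to 0, 763 to 3950 and 42 to 2712 genes. Interactions gave 0 to 0 and 2 to 1286 genes. Besides low against no ERN2 under thapsigargin, in no comparison were correlations of deviations from group means over 0.1 for every replicate number. Whether the numbers mark pairs was not settled. The mean over equal numbers was 0.186 and 0.301 for thapsigargin at 0 and 10 ng/mL and 0.261 between both doses in vehicle. In the remaining comparisons that mean lay between -0.146 and -0.0154. The replicate block gave 3 members at 10 against 0 ng/mL under thapsigargin and 7 for thapsigargin at 10 ng/mL. It gave 2 between both doses in vehicle, where HERPUD1 was added (0.48, adjusted p = 0.00211). At 100 against 0 ng/mL in vehicle it gave 3, where SYVN1 missed the threshold (0.0106). Over all genes, in this order, it called 564, 3620, 1224 and 750, against 0, 212, 356 and 1203 without the block. For thapsigargin without ERN2 both fits called 6 members, and genes called went from 1611 to 3571. In the interaction at 100 ng/mL it called DERL3 (adjusted p = 0.0094) and not HERPUD1 (0.0178). Genes called differed by over 1.5 times between edgeR and DESeq2 in several comparisons, from 28 to 381 at 10 ng/mL in vehicle and from 29 to 732 for thapsigargin at 100 ng/mL. With 3 libraries a group, smaller differences than those called may have been missed.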
